A study of Mus musculus and Homo sapiens with 8 samples.

Results

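The genes of DNA replication were followed in mouse thymus, on 5 bead arrays, and in H1299, a lung cancer cell line of human origin without p53, on 3 bead arrays. The set held 56 listed names, 2 of them former names of other members, and it covered the proteins that license origins, unwind and copy DNA, supply nucleotides and start S phase. In mouse, 54 of 30854 table rows carried a member name, and 45 of them were detected, with a detection p-value under 0.01 on at least 1 of the 5 arrays, among 13089 such rows in all. In H1299, 85 of 47323 probes stood for 54 member genes, and 51 of these genes were detected, among 12602 detected genes. The members were chosen by name.

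Thymus came from CD-1 background mice at an age of 2.5 weeks. Wild-type thymus was hybridised unirradiated on 1 array and after ionising radiation on 2 arrays, and thymus labelled TRAF6 null was hybridised after ionising radiation on 2 arrays. The dose was 15 Gy and the time 10 h. TRAF6 is an E3 ligase of ubiquitin that acts below Toll-like and TNF family receptors. These last arrays are called null after their label, which does not describe the allele. Whether the members of a pair of arrays are different mice is not stated, and the spread that p-values rest on may therefore be technical. No unirradiated array labelled TRAF6 null was analysed here, so a difference between the genotypes that was there without radiation and a different response to radiation cannot be told apart. The H1299 cells had been transfected with vector, p53 WT or p53 K24R, a mutant with arginine for lysine at residue 24, with 1 array each and therefore no replicate check and no test.

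Before S phase, the origin recognition complex with CDC6 and CDT1 loads the MCM helicase onto DNA, and CDC45 and GINS later join it to form the active helicase. The polymerase alpha and primase complex makes primers, replication factor C (RFC) loads the PCNA clamp, and polymerases delta and epsilon extend the strands. Most of these genes are transcribed around the start of S phase under E2F factors, and p53 lowers many of them through p21, the product of Cdkn1a. Immature thymocytes divide rapidly and are known for p53-dependent death after irradiation.

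Promoters were examined because many of the members moved together in thymus. The E2F site in 4 forms was searched on both strands, TTTCGCGC, TTTGGCGC, TTTCCCGC and TTTGCCGC, together with the cell cycle homology region TTTGAA and the CCAAT box, in the 250 bases before and 50 after each RefSeq gene start of the GRCm38.p6 assembly. Promoters were listed for 44 of the 54 mouse members. An E2F form was present in 19 of these 44 genes (43.2%), against 704 of 27025 genes (2.6%) in the whole table. TTTGAA was present in 6 members (13.6%) against 20.2% of all genes, and CCAAT in 28 (63.6%) against 41.1%. Neighbouring forms can share bases, as in Mcm6, and a match is a description of these letters and not of a bound site. The promoters of 6 members are shown, 4 with an E2F form (Mcm3, Mcm6, Rfc3 and Pold3) and 2 without (Pcna and Rpa3), written 5′ to 3′ on the strand of the gene with the E2F forms, on either strand, in capitals. They were chosen because these genes carry contrasting results below. The Mcm3 window lay at chr1:20820263-20820562 on the minus strand, Mcm6 at chr1:128359656-128359955 on the minus strand, Rfc3 at chr5:151651159-151651458 on the minus strand, Pold3 at chr7:100121453-100121752 on the minus strand, Pcna at chr2:132253131-132253430 on the minus strand and Rpa3 at chr6:8259092-8259391 on the minus strand.
Mcm3: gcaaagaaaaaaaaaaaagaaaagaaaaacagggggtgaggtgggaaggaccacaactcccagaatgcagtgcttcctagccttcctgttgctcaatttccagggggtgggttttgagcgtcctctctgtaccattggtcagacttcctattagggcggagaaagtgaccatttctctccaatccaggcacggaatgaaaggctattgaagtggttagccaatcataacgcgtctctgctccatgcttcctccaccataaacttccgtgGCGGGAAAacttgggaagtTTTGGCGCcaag
Mcm6: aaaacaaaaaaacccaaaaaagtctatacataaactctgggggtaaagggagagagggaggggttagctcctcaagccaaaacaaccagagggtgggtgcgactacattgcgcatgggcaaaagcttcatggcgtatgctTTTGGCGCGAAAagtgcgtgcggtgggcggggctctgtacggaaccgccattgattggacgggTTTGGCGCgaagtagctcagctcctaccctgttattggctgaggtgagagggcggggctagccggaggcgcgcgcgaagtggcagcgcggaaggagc
Rfc3: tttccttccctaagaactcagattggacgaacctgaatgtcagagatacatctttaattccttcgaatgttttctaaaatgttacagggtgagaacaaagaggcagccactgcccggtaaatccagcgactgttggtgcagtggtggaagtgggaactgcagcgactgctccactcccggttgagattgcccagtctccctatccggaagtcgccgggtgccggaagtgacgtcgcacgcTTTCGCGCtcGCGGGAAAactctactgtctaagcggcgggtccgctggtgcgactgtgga
Pold3: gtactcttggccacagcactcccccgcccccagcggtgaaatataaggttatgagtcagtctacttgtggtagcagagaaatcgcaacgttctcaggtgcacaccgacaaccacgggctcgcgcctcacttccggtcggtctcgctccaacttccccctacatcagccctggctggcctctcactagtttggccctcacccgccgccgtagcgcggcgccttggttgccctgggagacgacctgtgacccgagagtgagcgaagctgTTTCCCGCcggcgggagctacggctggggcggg
Pcna: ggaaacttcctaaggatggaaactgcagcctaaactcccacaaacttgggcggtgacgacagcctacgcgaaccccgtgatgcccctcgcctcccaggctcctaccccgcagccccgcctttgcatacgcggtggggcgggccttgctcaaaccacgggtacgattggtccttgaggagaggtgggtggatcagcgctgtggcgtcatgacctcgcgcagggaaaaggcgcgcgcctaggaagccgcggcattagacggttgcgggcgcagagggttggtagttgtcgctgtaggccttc
Rpa3: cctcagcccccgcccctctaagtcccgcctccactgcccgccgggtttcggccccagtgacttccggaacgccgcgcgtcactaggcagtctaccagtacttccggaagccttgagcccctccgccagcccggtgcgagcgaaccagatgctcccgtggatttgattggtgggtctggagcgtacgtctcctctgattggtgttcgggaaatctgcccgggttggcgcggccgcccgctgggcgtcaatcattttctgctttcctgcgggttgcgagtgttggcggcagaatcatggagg

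Rows detected per mouse array numbered 9493 to 11177, the median bead number per row was 41 to 43, and H1299 arrays had 12716 to 14233 detected probes with medians of 21 to 22 beads. Precision is limited by how few arrays there are. Here signals were background-corrected, quantile-normalised and put on a log2 scale, and levels are given as normalised log2 signals, which are compared between arrays for a gene and not between genes. Across genes, Pearson's r was 0.989 for the irradiated wild-type pair, 0.972 for the null pair and 0.874 to 0.894 between groups. Traf6 itself was 8.11 without irradiation, 7.67 and 7.74 in irradiated wild type, and 9.04 and 8.62 in irradiated null. It was higher on the arrays labelled null (limma log2 difference 1.13 ± 0.20 SE, adjusted p = 0.013), so it does not check the labels. Cdkn1a, a p53 target, rose 12.5-fold in irradiated wild-type thymus (3.65 ± 0.23 SE, adjusted p = 0.00594).

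In wild-type thymus, replication genes fell after irradiation. Of the 45 detected members, 41 were lower and 0 higher at a limma adjusted p under 0.05 over all 13089 rows, where 17.8% of all rows were lower and 17.1% higher. The median member difference was -1.93 on the log2 scale, against 0.04 over all rows. In whole thymus, fewer cells that express a gene and less RNA per cell cannot be told apart. By group means 51.9% of all rows were higher after irradiation. All 45 members were lower on both irradiated wild-type arrays than on the unirradiated array, a pattern that was not counted over all rows. The 4 that did not pass were Pold1 (-0.85 ± 0.32 SE, adjusted p = 0.1), Pold3 (-0.52 ± 0.30 SE, adjusted p = 0.236), E2f1 (-1.23 ± 0.50 SE, adjusted p = 0.117) and E2f2 (-1.22 ± 0.42 SE, adjusted p = 0.0807). Prim1, Ccne2 and Uhrf1 were detected on the unirradiated array alone, so they entered the test only through the array where they were high. With detection on at least 2 of 5 arrays 38 of 42 members were lower and 0 higher, beside 2031 lower and 2158 higher of 11563 rows. In the authors' deposited matrix values 39 members were lower and 0 higher, and of all rows 1600 were lower and 3600 higher, against 2330 and 2236 here. The median of all rows was then 0.25, and the member median relative to it -1.54. The unirradiated group was 1 array, assumed to vary like the others. With either irradiated wild-type array left out, 0 members and 0 rows of the table passed, and 40 and 41 members had an unadjusted p under 0.05.

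**Figure D1:**
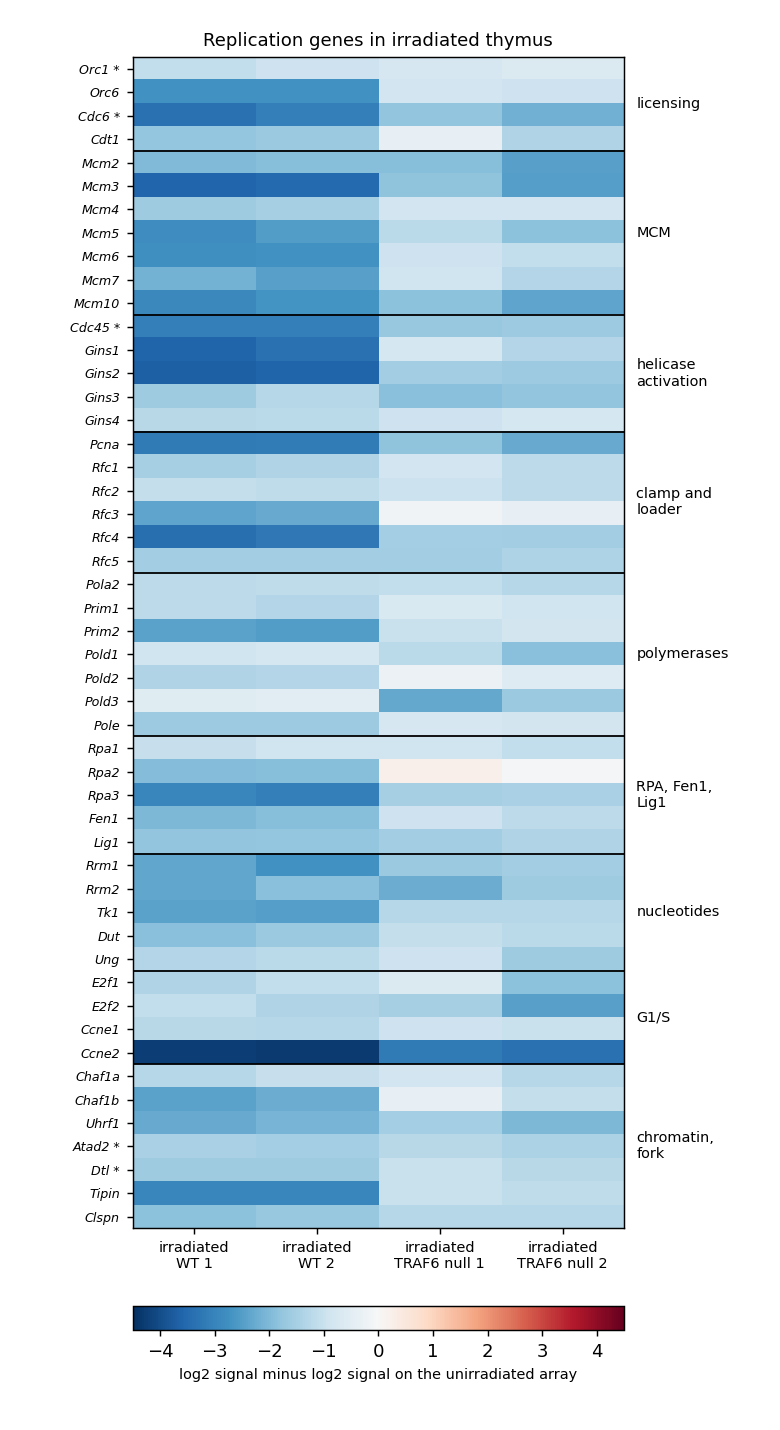
Differences in normalised log2 signal between each irradiated array and the unirradiated array (colour scale, blue lower and red higher) for the 50 mouse members above the negative controls on at least 1 array, ordered by role. An asterisk marks the 5 rows that did not pass the detection p-value and were not in the test. Nearly every cell is blue, Ccne2 is darkest, and most rows are paler on the arrays labelled TRAF6 null.

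In irradiated thymus labelled TRAF6 null, replication genes were on the whole higher than in irradiated wild type, but unevenly. At a limma adjusted p under 0.05, 23 of 45 members were higher and 1, Pold3, was lower, where 19.3% of all rows were higher and 21.2% lower. The median member difference was 0.69, against -0.02 over all rows. By group means 36 of 45 members were higher, against 49.0% of all rows. Both null arrays stood above both irradiated wild-type arrays in 32 members and below both in 4, Gins3, Pold1, Pold3 and E2f2. How many of all rows separate in this way was not counted. Other scaling moved the split of calls. With median scaling 22 members were called higher and 2 lower (2044 and 3575 of all rows). In the authors' deposited matrix values 15 were called higher and 6 lower (1275 and 4686). In the matrix the median of all rows was -0.25, and relative to it the member median was 0.42. Without irradiated wild-type replicate 1 and without replicate 2, fewer members and fewer of all rows were called. The member medians were then 0.66 and 0.76, against -0.005 and -0.018 over all rows. Gins2, Orc6, Rfc3, Rfc4 and Rpa2 were called higher under every alternative run and with each array left out, and so was Tipin where it was tested, which was not the case with detection on all 5 arrays.

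Against the unirradiated wild-type array, the arrays labelled TRAF6 null were still low. Of 45 members 39 were lower and 0 higher at a limma adjusted p under 0.05, where 15% of all rows were lower and 12.6% higher, and the median difference was -1.20 against -0.04 over all rows. In the authors' matrix values 38 members were lower and 0 higher, beside 1978 lower and 1062 higher of all rows, against 1959 and 1646 here. The 6 that did not pass were Cdt1, Rfc3, Pold2, Rpa2, E2f1 and Chaf1b. Prim1, Ccne2 and Uhrf1 were tested only through their detection on the unirradiated array, so their fall against it was fixed in direction. With detection on at least 2 of 5 arrays 36 of 42 members were lower and 0 higher, beside 1738 lower and 1573 higher of 11563 rows. Fewer members and fewer of all rows passed without irradiated wild-type replicate 1 or 2. The member median was then -1.22 in each case, against -0.04 over all rows. The 3 mouse comparisons share arrays, so their values for a gene are not independent of each other. The median member level was 9.67 without irradiation, 7.42 and 7.61 in irradiated wild type and 8.52 and 8.11 in irradiated null. Null replicate 1 was above replicate 2 in 35 of 45 members, by a median of 0.19. Between the null arrays 14 members differed by more than 0.5, against 0 between the irradiated wild-type arrays. How many of all rows differ in these ways was not counted, and the null pair was less alike across all genes too (Pearson's r 0.972 against 0.989).

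Markers of the cell types in thymus differed between the arrays too. The summed linear normalised signal of all 54 member rows was 61166 without irradiation, 16233 and 17096 in irradiated wild type and 28650 and 23933 in irradiated null. For 6 T lineage markers, all above background, the sum was 44993 without irradiation, 22449 and 19593 in irradiated wild type, and 25700 and 19401 in irradiated null. For 7 double-positive thymocyte markers, 6 above background and Cd8a below it on every array, it was 17265 without irradiation, 7930 and 4703 in irradiated wild type, and 3730 and 2468 in irradiated null. Both sums were lower on every irradiated array than on the unirradiated one, and the double-positive sum was lowest on the null arrays. That sum rests most on Cd8b1, the brightest of these rows on every array. In null against irradiated wild type 0 of 6 tested double-positive markers passed, where 21.2% of all rows were lower. By its mean 1 of them, Ptcra, was higher (0.07).

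Among cells that divide outside the T lineage, 5 of 5 erythroid and 4 of 4 neutrophil precursor markers were above background. The erythroid sum was 42014 without irradiation, 31742 and 50457 in irradiated wild type, and 48846 and 48826 in irradiated null. Slc4a1, the red cell anion exchanger, was 9.90 without irradiation, 7.33 and 8.23 in irradiated wild type, and 11.42 and 11.97 in irradiated null. It was lower in irradiated than in unirradiated wild type and higher in null than in irradiated wild type, while the globin rows Hbb-b1 and Hba-a1 did not pass in any comparison. The neutrophil precursor sum was 4558 without irradiation, 5990 and 5817 in irradiated wild type, and 9131 and 11797 in irradiated null. In null against irradiated wild type 3 of 4 markers, Mpo, Chil3 and Ngp, were higher, where 19.3% of all rows were higher. S100a8, the brightest of these rows on every array, did not pass (0.20).

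Supporting cells gave further differences. The macrophage sum, with 5 of 5 markers above background, was 928.7 without irradiation, 4426 and 4969 in irradiated wild type, and 3042 and 4489 in irradiated null. That sum rests most on Cd68, the brightest of these rows on every array. In null against irradiated wild type Csf1r passed as higher (1.35) and Cd14 as lower (-1.52), and the rest did not pass. The fibroblast sum, also with 5 of 5 markers above background, was 1705 without irradiation, 2416 and 2526 in irradiated wild type, and 6846 and 7975 in irradiated null. In null against irradiated wild type 4 of 4 tested markers were higher, where 19.3% of all rows were higher. The fibroblast sum rests most on Dcn, the brightest of these rows on every array. With irradiation of wild type Dcn passed as higher (0.77) and Lum as lower (-1.74). Col3a1 (-0.17) and Pdgfra (0.42) did not pass there. The sum of 6 double-negative thymocyte markers, all above background, was 1236 without irradiation, 2728 and 2549 in irradiated wild type, and 1060 and 986.1 in irradiated null. It rests most on Notch1, the brightest of these rows on every array. With irradiation of wild type 2 of 5 tested rows, Notch1 (1.28) and Hes1 (1.94), were higher, where 17.1% of all rows were. Il2ra (-0.08), Notch3 (1.12) and Dtx1 (0.36) did not pass. In null against irradiated wild type 4 of 5 were lower, where 21.2% of all rows were. For 4 endothelial markers, 3 above background and Kdr below it, the sum was 416.1 without irradiation, 655.9 and 563.4 in irradiated wild type, and 560.2 and 687.2 in irradiated null. Pecam1 was the brightest of these rows on every array. In null against irradiated wild type 1 of 3 tested rows, Cdh5, passed as lower (-1.15) and 0 as higher. The keratin genes Krt8 and Krt18, expressed in thymic epithelium, were higher in irradiated than in unirradiated wild type (2.06 and 2.33) and lower in null than in irradiated wild type (-1.25 and -0.91). The part of any of these cell types in the results on replication genes was not tested.

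Of the licensing factors, 2 passed the detection p-value, and both fell with irradiation, where 17.8% of all rows were lower. Orc6, a subunit of the origin recognition complex, was 11.33 without irradiation, 8.62 and 8.61 in irradiated wild type, and 10.47 and 10.39 in irradiated null. It was 6.56-fold lower in irradiated than in unirradiated wild type (-2.71 ± 0.18 SE, adjusted p = 0.00594) and 3.52-fold higher in null than in irradiated wild type (1.81 ± 0.15 SE, adjusted p = 0.00329), and the null arrays remained below the unirradiated one (-0.90 ± 0.18 SE, adjusted p = 0.0266). Cdt1, which brings the MCM ring to origins, was 10.35 without irradiation, 8.60 and 8.70 in irradiated wild type, and 9.999 and 9.01 in irradiated null. It fell with irradiation (-1.70 ± 0.43 SE, adjusted p = 0.0363), and its null arrays lay 1 near the unirradiated and 1 near the irradiated wild-type level, so that neither comparison of the null passed (0.85 ± 0.35 SE, adjusted p = 0.11 against irradiated wild type).

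Cdc6, the ATPase that loads MCM together with Cdt1, missed the detection p-value on every array, although its signal was above the negative controls on 4 of them, all but irradiated wild-type replicate 1. It was 8.38 without irradiation, 5.01 and 5.30 in irradiated wild type, and 6.62 and 6.21 in irradiated null, with groups that did not overlap. Tested only under the added rule that keeps rows above the negative controls, Cdc6 was 9.32-fold lower after irradiation (limma adjusted p = 0.00523) and 2.39-fold higher in null than in irradiated wild type (adjusted p = 0.0116). Orc1, the largest subunit of the recognition complex, was above the controls on the unirradiated array alone and at least 1.41-fold lower in irradiated wild type. Under the same added rule Orc1 did not pass in null against irradiated wild type (0.29, limma adjusted p = 0.219).

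The MCM subunits all fell with irradiation and then separated. Mcm2 was 10.56 without irradiation, 8.58 and 8.65 in irradiated wild type, and 8.64 and 8.11 in irradiated null, and its null arrays overlapped the irradiated wild-type arrays (-0.24 ± 0.22 SE, adjusted p = 0.428) after a fall of 3.83-fold with irradiation (-1.94 ± 0.28 SE, adjusted p = 0.0103). Mcm3 was 9.87 without irradiation, 6.31 and 6.36 in irradiated wild type, and 8.07 and 7.38 in irradiated null. It had the largest fall of the MCM rows, 11.6-fold (-3.53 ± 0.32 SE, adjusted p = 0.00679), and was 2.62-fold higher in null than in irradiated wild type (1.39 ± 0.27 SE, adjusted p = 0.0155). Mcm4 was 10.79 without irradiation, 9.21 and 9.29 in irradiated wild type, and 9.94 and 9.93 in irradiated null, and it had the smallest fall of the MCM rows (-1.54 ± 0.18 SE, adjusted p = 0.00834) and the smallest of the passing null differences among them (0.69 ± 0.15 SE, adjusted p = 0.0219).

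Mcm5 was 12.77 without irradiation, 9.96 and 10.25 in irradiated wild type, and 11.55 and 10.93 in irradiated null. It fell 6.35-fold (-2.67 ± 0.32 SE, adjusted p = 0.00846) and was 2.2-fold higher in null than in irradiated wild type (1.14 ± 0.26 SE, adjusted p = 0.0253). Mcm6 was 10.95 without irradiation, 8.19 and 8.24 in irradiated wild type, and 10.01 and 9.85 in irradiated null, with the groups at 3 separate levels. It fell 6.67-fold (-2.74 ± 0.19 SE, adjusted p = 0.00594) and was 3.28-fold higher in null than in irradiated wild type (1.72 ± 0.16 SE, adjusted p = 0.00374). Mcm7 was 10.23 without irradiation, 8.11 and 7.80 in irradiated wild type, and 9.33 and 8.92 in irradiated null, again in 3 levels (-2.27 ± 0.27 SE, adjusted p = 0.00831 with irradiation, 1.17 ± 0.22 SE, adjusted p = 0.0151 for null against irradiated wild type).

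Of the 7 detected MCM rows, all 7 were lower after irradiation, where 17.8% of all rows were. In null against irradiated wild type 5 were higher, the subunits Mcm3 to Mcm7, where 19.3% of all rows were. Mcm2 belongs to the same ring, and its difference from the other subunits was not tested. In the authors' matrix values Mcm2 passed as lower in the null. Mcm10, which helps to activate the loaded helicase, was 10.31 without irradiation, 7.42 and 7.62 in irradiated wild type, and 8.47 and 7.93 in irradiated null. It fell 6.91-fold (-2.79 ± 0.29 SE, adjusted p = 0.00738), and although both null arrays were above both irradiated wild-type arrays, the difference did not pass (0.68 ± 0.24 SE, adjusted p = 0.0744). Mcm8, a helicase of homologous recombination, was not above background on any array.

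**Figure D2:**
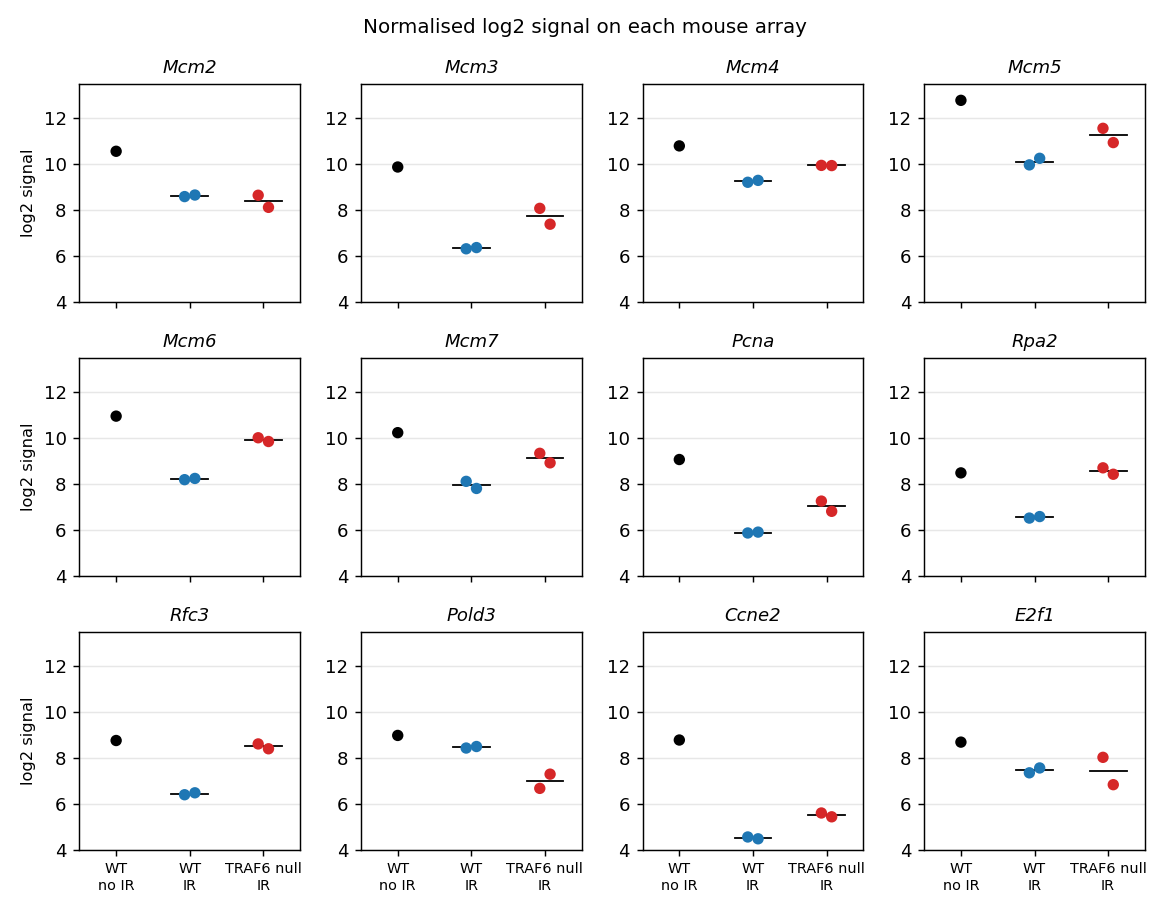
Normalised log2 signal of 12 replication genes on each of the 5 mouse arrays, with black for unirradiated wild type, blue for irradiated wild type and red for irradiated thymus labelled TRAF6 null; lines are the means of 2 arrays. The red points lie between black and blue for most genes, at the black level for Rpa2, on and below the blue points for Mcm2, well below them for Pold3 and apart from each other for E2f1.

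The helicase cofactors fell in 4 of 4 detected rows, where 17.8% of all rows were lower. Of these 4, 2 were higher in null than in irradiated wild type, against 19.3% of all rows. Gins1 was 9.33 without irradiation, 5.73 and 5.96 in irradiated wild type, and 8.52 and 8.002 in irradiated null. It fell 11.2-fold (-3.48 ± 0.29 SE, adjusted p = 0.00612) and had the largest null difference of all members, 5.33-fold higher than irradiated wild type (2.41 ± 0.23 SE, adjusted p = 0.00403). Gins2 was 9.67 without irradiation, 5.997 and 6.07 in irradiated wild type, and 8.10 and 8.03 in irradiated null, with a fall of 12.4-fold (-3.63 ± 0.19 SE, adjusted p = 0.00594) and a null level 4.08-fold above irradiated wild type (2.03 ± 0.15 SE, adjusted p = 0.00301). Both are subunits of the GINS ring, as are Gins3 and Gins4, which fell with irradiation (-1.44 and -1.22) but whose null differences did not pass (-0.39 ± 0.18 SE, adjusted p = 0.149, and 0.36 ± 0.15 SE, adjusted p = 0.116). The difference between the subunits was not tested. Cdc45, the partner of GINS in the active helicase, missed the detection p-value and was 9.25 without irradiation, 6.18 and 6.18 in irradiated wild type, and 7.56 and 7.62 in irradiated null. Under the added rule it was 8.37-fold lower after irradiation (limma adjusted p = 0.00516) and 2.66-fold higher in null than in irradiated wild type (adjusted p = 0.00452).

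The clamp and its loader fell as a whole, with 6 of 6 rows lower after irradiation, against 17.8% of all rows. In null against irradiated wild type 3 of 6 were higher, against 19.3% of all rows. Pcna, the sliding clamp, was 9.06 without irradiation, 5.87 and 5.90 in irradiated wild type, and 7.25 and 6.81 in irradiated null. It fell 9.05-fold (-3.18 ± 0.25 SE, adjusted p = 0.00601), was 2.21-fold higher in null (1.15 ± 0.21 SE, adjusted p = 0.0132), and there remained 4.09-fold below the unirradiated array (-2.03 ± 0.25 SE, adjusted p = 0.0105). Rfc3, a small subunit of the clamp loader, was 8.76 without irradiation, 6.40 and 6.48 in irradiated wild type, and 8.61 and 8.40 in irradiated null, so the null arrays lay just under the unirradiated one. It fell 4.99-fold (-2.32 ± 0.20 SE, adjusted p = 0.0065), was 4.18-fold higher in null than in irradiated wild type (2.06 ± 0.16 SE, adjusted p = 0.00319), and did not pass between null and unirradiated (-0.25 ± 0.20 SE, adjusted p = 0.388). Rfc4 was 10.27 without irradiation, 6.88 and 7.06 in irradiated wild type, and 8.75 and 8.72 in irradiated null, with -3.30 ± 0.19 SE, adjusted p = 0.00594 for irradiation and 1.76 ± 0.16 SE, adjusted p = 0.00363 for the null.

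The other loader subunits, the large subunit Rfc1 and the small subunits Rfc2 and Rfc5, fell by 1.42, 1.11 and 1.56 on the log2 scale with irradiation. Their null arrays did not pass against irradiated wild type, with differences of 0.41, 0.06 and 0.09 (adjusted p = 0.139, 0.8 and 0.677). For Rfc2 and Rfc5 the arrays of the groups overlapped, and the sign turned in the authors' matrix values.

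Polymerase and primase genes included the 1 member called lower in null than in irradiated wild type. Of 7 detected rows, 5 fell with irradiation, where 17.8% of all rows were lower. In null against irradiated wild type 3 were higher and 1 lower, where 19.3% of all rows were higher and 21.2% lower. Prim2, the large primase subunit, was 8.98 without irradiation, 6.57 and 6.47 in irradiated wild type, and 7.98 and 8.14 in irradiated null, a fall of 5.51-fold (-2.46 ± 0.20 SE, adjusted p = 0.00601) and a null level 2.91-fold above irradiated wild type (1.54 ± 0.16 SE, adjusted p = 0.00447). Pole, the catalytic subunit of polymerase epsilon, was 7.18 without irradiation, 5.53 and 5.56 in irradiated wild type, and 6.41 and 6.34 in irradiated null, with -1.63 ± 0.18 SE, adjusted p = 0.00789 for irradiation and 0.83 ± 0.15 SE, adjusted p = 0.0136 for the null. Pold2, the polymerase delta subunit that holds the catalytic one, fell (-1.33 ± 0.22 SE, adjusted p = 0.0132) and was higher in null than in irradiated wild type (0.90 ± 0.18 SE, adjusted p = 0.0168).

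Pold3, an accessory subunit of polymerase delta that binds PCNA, went the other way. Pold3 was 8.98 without irradiation, 8.43 and 8.49 in irradiated wild type, and 6.67 and 7.29 in irradiated null. The irradiated wild-type arrays were close to the unirradiated one (-0.52 ± 0.30 SE, adjusted p = 0.236), and the null arrays were 2.79-fold below irradiated wild type (-1.48 ± 0.25 SE, adjusted p = 0.0111) and 3.99-fold below unirradiated (-1.995 ± 0.30 SE, adjusted p = 0.0144). Its null difference was negative in every alternative run, and it was no longer called when one of the irradiated wild-type arrays was dropped (limma adjusted p = 0.0768 and 0.0872). Pold1, the catalytic subunit of the same enzyme, was 10.61 without irradiation, 9.70 and 9.83 in irradiated wild type, and 9.39 and 8.71 in irradiated null, lowest on the null arrays, and passed against the unirradiated array (-1.56 ± 0.32 SE, adjusted p = 0.0272) but not against irradiated wild type (-0.71 ± 0.26 SE, adjusted p = 0.0877).

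Pola2, the second subunit of polymerase alpha, fell with irradiation (-1.16 ± 0.20 SE, adjusted p = 0.0139) and overlapped between the irradiated groups (-0.04 ± 0.16 SE, adjusted p = 0.852). Prim1, the catalytic primase subunit, was above background on the unirradiated array alone and at least 1.69-fold lower in irradiated wild type, which its detection there alone fixes in direction. Pola1 and Pole2, the catalytic subunit of polymerase alpha and an accessory subunit of epsilon, were not above background on any array.

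Strand binding and joining factors fell in 5 of 5 rows after irradiation, where 17.8% of all rows were lower. In null 3 of the 5 were higher than in irradiated wild type, against 19.3% of all rows. Rpa2, the middle subunit of the protein RPA, which coats single strands, was 8.48 without irradiation, 6.51 and 6.58 in irradiated wild type, and 8.70 and 8.42 in irradiated null. It fell 3.82-fold with irradiation (-1.93 ± 0.21 SE, adjusted p = 0.00764), was 4.04-fold higher in null than in irradiated wild type (2.01 ± 0.17 SE, adjusted p = 0.0035), and the null arrays lay on either side of the unirradiated level (0.08 ± 0.21 SE, adjusted p = 0.802). It was the 1 member of 45 not highest on the unirradiated array, and the sign of that last difference turned with median scaling and in the authors' matrix values. Rpa3, the small subunit, was 12.35 without irradiation, 9.42 and 9.28 in irradiated wild type, and 10.85 and 10.88 in irradiated null, with a fall of 7.99-fold (-2.999 ± 0.19 SE, adjusted p = 0.00594) and a partial difference in the null (1.52 ± 0.16 SE, adjusted p = 0.00439). Rpa1, the large subunit, fell (-0.97 ± 0.20 SE, adjusted p = 0.023) and overlapped between the irradiated groups (-0.04 ± 0.17 SE, adjusted p = 0.874).

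Fen1, the flap nuclease that trims Okazaki fragments, was 11.51 without irradiation, 9.47 and 9.60 in irradiated wild type, and 10.56 and 10.31 in irradiated null, a fall of 3.92-fold (-1.97 ± 0.21 SE, adjusted p = 0.00757) and a null level 1.87-fold above irradiated wild type (0.90 ± 0.17 SE, adjusted p = 0.0157). Lig1, the ligase that joins those fragments, fell 3.35-fold (-1.75 ± 0.20 SE, adjusted p = 0.00789), and its null difference did not pass (0.30 ± 0.16 SE, adjusted p = 0.195) and turned negative with median scaling and in the authors' matrix values.

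**Figure D3:**
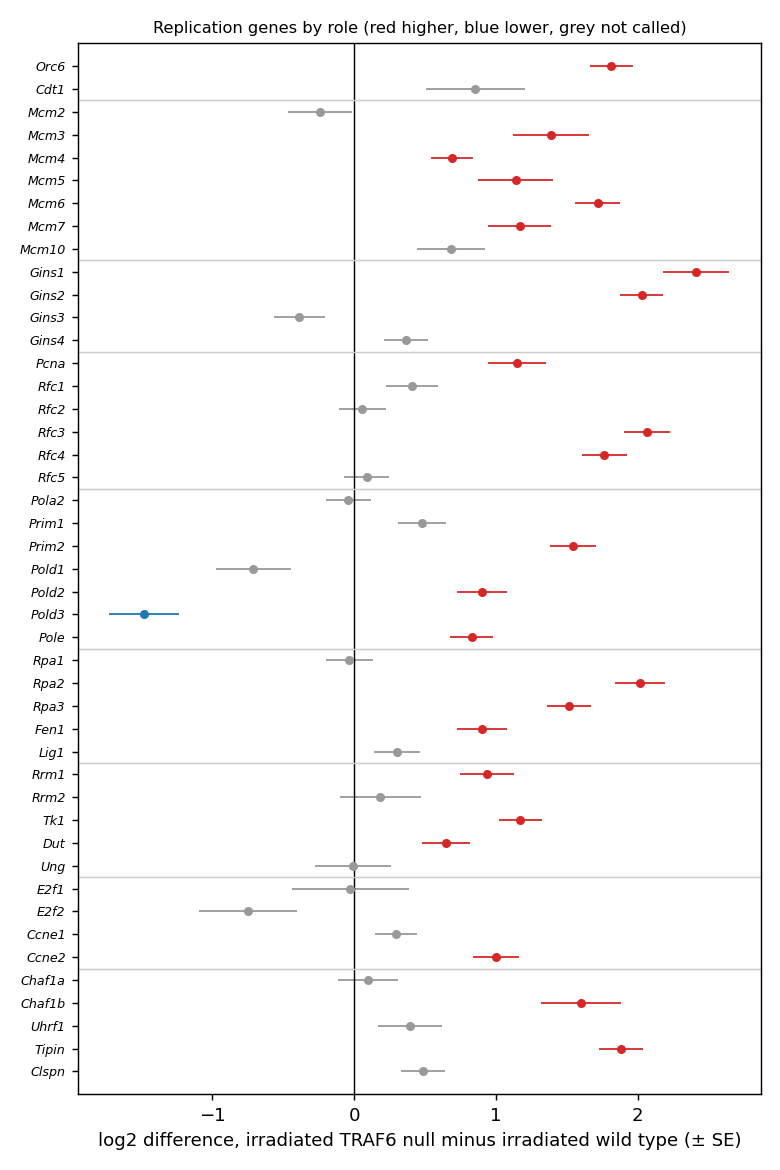
Log2 difference between irradiated thymus labelled TRAF6 null and irradiated wild type (points, with bars for 1 SE from limma) for the 45 detected members by role, red for higher and blue for lower at an adjusted p under 0.05 and grey for the rest. Gins1 is farthest right at 2.41, Pold3 is alone in blue at -1.48, and red and grey subunits stand side by side in the RFC, GINS and RPA complexes.

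Nucleotide supply genes all fell after irradiation, 5 of 5, where 17.8% of all rows were lower. In null 3 of the 5 were higher than in irradiated wild type, where 19.3% of all rows were. Rrm1, the large subunit of ribonucleotide reductase, was 10.42 without irradiation, 8.06 and 7.69 in irradiated wild type, and 8.76 and 8.86 in irradiated null, with -2.54 ± 0.24 SE, adjusted p = 0.00681 for irradiation and 0.94 ± 0.19 SE, adjusted p = 0.0186 for the null. Rrm2, its small subunit, was 8.93 without irradiation, 6.60 and 7.04 in irradiated wild type, and 6.68 and 7.32 in irradiated null, so that the irradiated groups overlapped (-2.11 ± 0.35 SE, adjusted p = 0.0137 for irradiation, 0.18 ± 0.29 SE, adjusted p = 0.63 for the null). Tk1, the thymidine kinase of S phase, was 8.89 without irradiation, 6.48 and 6.39 in irradiated wild type, and 7.61 and 7.60 in irradiated null, a fall of 5.47-fold (-2.45 ± 0.18 SE, adjusted p = 0.00594) and a null level 2.25-fold above irradiated wild type (1.17 ± 0.15 SE, adjusted p = 0.00639).

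Dut, which removes dUTP, was not above background on the irradiated wild-type arrays and at least 3.2-fold lower there than unirradiated (adjusted p = 0.00801). The null arrays were at least 1.46-fold above irradiated wild type (adjusted p = 0.0348). Ung, which removes uracil from DNA, fell (-1.26 ± 0.33 SE, adjusted p = 0.0397), and the null arrays lay on either side of the irradiated wild-type ones (-0.01 ± 0.27 SE, adjusted p = 0.979).

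Among the genes that start S phase, Ccne2, a cyclin that activates CDK2, was detected on the unirradiated array alone, so its being lower elsewhere is given as a description. Ccne2 was 8.78 without irradiation, 4.56 and 4.48 in irradiated wild type, and 5.60 and 5.43 in irradiated null, not above background on the irradiated wild-type arrays. It was at least 12.8-fold lower in irradiated than in unirradiated wild type, at least 1.34-fold higher in null than in irradiated wild type (adjusted p = 0.00991), and in the null still 9.57-fold below unirradiated. Its relative Ccne1 was 7.38 without irradiation, 6.13 and 6.11 in irradiated wild type, and 6.44 and 6.40 in irradiated null, a fall of 2.4-fold (-1.26 ± 0.18 SE, adjusted p = 0.0107) with a null difference that did not pass (0.29 ± 0.15 SE, adjusted p = 0.175) and whose sign turned with median scaling and in the authors' matrix values.

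The E2F genes themselves did not pass between the irradiated groups. E2f1, an activator of replication genes, was 8.69 without irradiation, 7.35 and 7.56 in irradiated wild type, and 8.02 and 6.83 in irradiated null, and its null arrays were the farthest apart of all members, 1.19 on the log2 scale. None of its 3 comparisons passed. E2f2, a second activator, was 10.004 without irradiation, 8.90 and 8.67 in irradiated wild type, and 8.52 and 7.56 in irradiated null, with both null arrays below both irradiated wild-type arrays (-0.75 ± 0.35 SE, adjusted p = 0.145), and it passed only between null and unirradiated (-1.97 ± 0.42 SE, adjusted p = 0.0302).

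Chromatin and fork factors fell in 5 of 5 detected rows, where 17.8% of all rows were lower. In null 2 of the 5 were higher than in irradiated wild type, against 19.3% of all rows. Tipin, which with Timeless protects the fork, was 9.93 without irradiation, 6.98 and 6.97 in irradiated wild type, and 8.93 and 8.79 in irradiated null, a fall of 7.71-fold (-2.95 ± 0.19 SE, adjusted p = 0.00594) and a null level 3.69-fold above irradiated wild type (1.88 ± 0.15 SE, adjusted p = 0.00329). Chaf1b, the middle subunit of the histone chaperone CAF-1, was 10.66 without irradiation, 8.24 and 8.44 in irradiated wild type, and 10.30 and 9.58 in irradiated null. It fell 5-fold (-2.32 ± 0.34 SE, adjusted p = 0.0113) and was 3.03-fold higher in null than in irradiated wild type (1.60 ± 0.28 SE, adjusted p = 0.0126), while the large subunit Chaf1a fell (-1.17 ± 0.26 SE, adjusted p = 0.0261) and overlapped between the irradiated groups (0.10 ± 0.21 SE, adjusted p = 0.728).

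Uhrf1, which guides maintenance of DNA methylation, and Clspn, the checkpoint adaptor claspin, were 4.53-fold and 3.43-fold lower in irradiated than in unirradiated wild type. Uhrf1 was detected on the unirradiated array alone, which fixes the direction of its fall. Neither gene passed in the null against irradiated wild type (0.40 ± 0.23 SE, adjusted p = 0.217 and 0.49 ± 0.16 SE, adjusted p = 0.0601). Dtl, the substrate receptor that destroys Cdt1, and Atad2, a chromatin ATPase, missed the detection p-value and were above the negative controls on the unirradiated array alone. They were at least 1.89-fold and 1.93-fold lower in irradiated wild type, with no test given for this fall, since that array alone brings them above the controls. Under the added rule neither passed in null against irradiated wild type (0.49 and 0.14, limma adjusted p = 0.0754 and 0.545). Slbp, which binds histone mRNA, was not above background on any array.

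Members with and without an E2F form in the promoter had similar medians, given here as a description. The 13 tested members with a form had medians of -1.78 for irradiation and 0.49 for null against irradiated wild type, and the 23 without had -1.93 and 0.65. Mcm6 and Rfc3, printed above with forms, were among the genes higher in null than in irradiated wild type, as were Pcna and Rpa3, printed without, while Pold3, with a form, was lower.

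Replication factors outside the set were also lower after irradiation. Of 36 other rows 25 were tested, 19 lower and 0 higher in irradiated than in unirradiated wild type (median -1.53), where 17.8% of all rows were lower. The largest were Tyms, thymidylate synthase (-3.93 ± 0.24 SE, adjusted p = 0.00594), and Pclaf, a PCNA-binding protein (-3.90 ± 0.24 SE, adjusted p = 0.00594). In null against irradiated wild type 10 were higher and 2 lower (median 0.33), where 19.3% of all rows were higher and 21.2% lower, the higher led by Tyms (1.52 ± 0.20 SE, adjusted p = 0.00652) and Nasp, a histone chaperone (1.51 ± 0.16 SE, adjusted p = 0.00451), and the lower being Pole4 (-1.49 ± 0.24 SE, adjusted p = 0.0098), a small subunit of polymerase epsilon, and Ssrp1 (-0.57 ± 0.16 SE, adjusted p = 0.039), a subunit of the histone chaperone FACT. Against unirradiated wild type the null had 19 lower and 0 higher, where 15% of all rows were lower and 12.6% higher.

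Genes that control entry into S phase gave calls in both directions, some of their counts near the share of all rows. Of 22 rows 15 were tested, and irradiation left 6 lower and 3 higher, where 17.8% of all rows were lower and 17.1% higher, the higher being Cdkn1a, Ccnd2 (1.26 ± 0.34 SE, adjusted p = 0.045) and Ccnd1 (1.10 ± 0.21 SE, adjusted p = 0.0178), and the lower led by Tfdp1, the partner of E2F factors (-1.86 ± 0.22 SE, adjusted p = 0.00838), and Cdk4 (-1.67 ± 0.20 SE, adjusted p = 0.00831). In null against irradiated wild type 4 were lower and 0 higher, where 21.2% of all rows were lower and 19.3% higher, led by the D cyclins Ccnd2 (-3.24 ± 0.28 SE, adjusted p = 0.00353) and Ccnd1 (-2.97 ± 0.17 SE, adjusted p = 0.00245). Cdkn1a was 7.87 without irradiation, 11.51 and 11.54 in irradiated wild type, and 9.99 and 10.37 in irradiated null, between the other groups in the null (-1.34 ± 0.19 SE, adjusted p = 0.00788 against irradiated wild type). Against unirradiated wild type the null had 10 lower and 1 higher, Cdkn1a, where 15% of all rows were lower and 12.6% higher.

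In H1299, replication genes were slightly lower with p53 WT than with vector. Of 51 detected members, 14 were lower and 1 higher by 1.5-fold or more, where 11.5% of all 12602 detected genes were lower and 9.25% higher by that much. The median difference was -0.32, against -0.01 over all genes, and 47 of 51 members were lower at all, against 51.3% of genes. With median scaling 17 members were lower and 1 higher, beside 2008 lower and 804 higher of all genes, against 1443 and 1166 here, and the median of all genes was -0.10. At 2-fold 4 members were lower, POLA1, RFC1, ATAD2 and DTL, where 2.34% of all genes were, and 0 were higher, where 2.78% of all genes were. CDKN1A was 11.67 with vector, 14.32 with p53 WT and 13.65 with p53 K24R.

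With p53 K24R the members were nearer to vector. Against vector, 4 were lower and 1 higher by 1.5-fold, where 5.86% of genes were lower and 6.83% higher, and the median was -0.12. At 2-fold 0 members were lower and 0 higher, where 0.674% of genes were lower and 1.39% higher. K24R set directly against p53 WT had 7 members higher and 0 lower by 1.5-fold, where 9.97% of genes were higher and 8.19% lower, with a median of 0.33 against 0.02 over all genes. At 2-fold 3 were higher and 0 lower, where 1.17% of genes were higher and 1.68% lower. With median scaling 10 members were higher and 0 lower, beside 1766 higher and 725 lower of all genes, against 1256 and 1032 here. In the authors' matrix values the members were 4 and 0 and all genes 292 and 81, and K24R against vector gave 0 members and, over all genes, 140 higher and 22 lower, against 861 and 739 here. Of the 51 members 41 were higher with K24R than with p53 WT, against 51.3% of genes. The median member level was 9.56 with vector, 9.26 with p53 WT and 9.44 with K24R. The 3 comparisons share arrays. Each array came from 1 transfection, so these values compare the arrays and not the conditions.

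**Figure D4:**
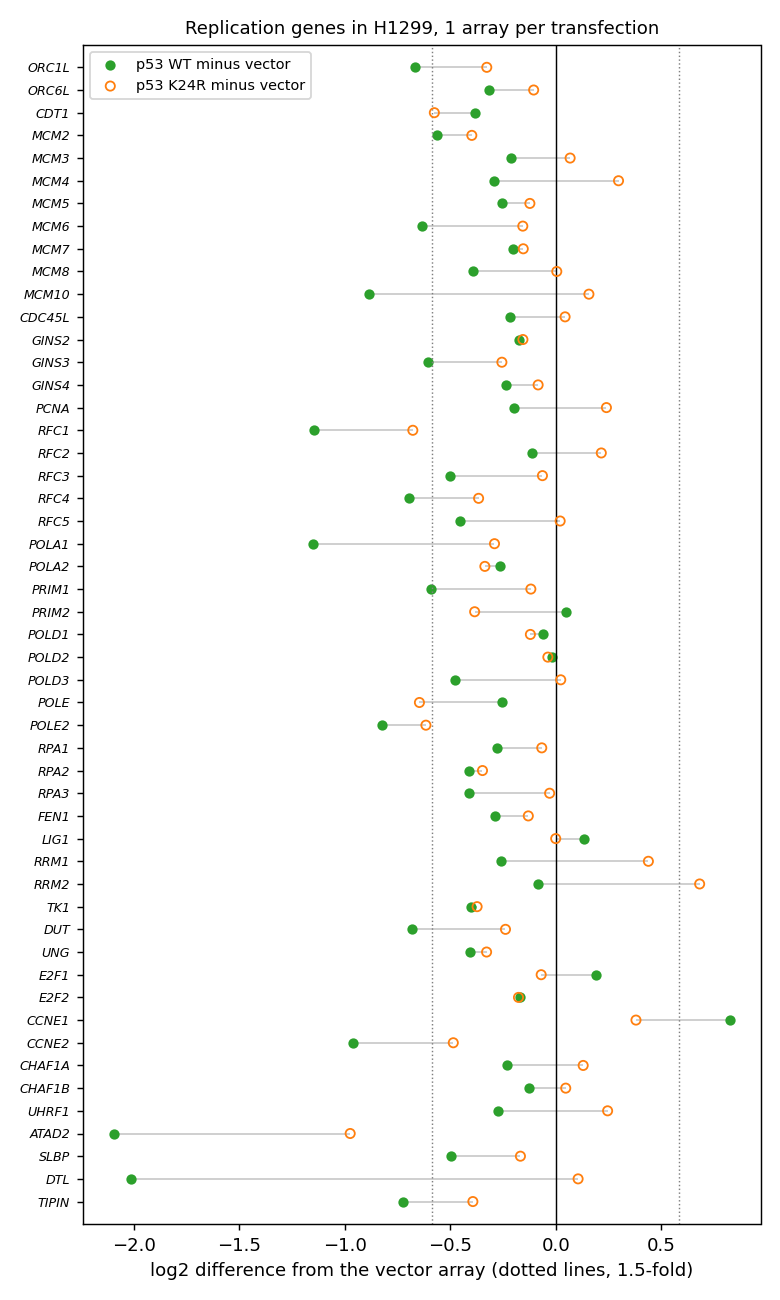
Log2 difference from the vector array for 51 detected members in H1299, filled green points for p53 WT and open orange points for p53 K24R, 1 array each, with dotted lines at 1.5-fold. Most green points lie left of 0 and left of the orange point of the same gene, with ATAD2 and DTL farthest left and CCNE1 farthest right.

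The largest differences in H1299 were those of DTL and ATAD2. DTL was 6.86 with vector, 4.85 with p53 WT and 6.97 with p53 K24R, not detected with p53 WT, and was at least 2.55-fold lower with p53 WT than with vector and at least 2.74-fold higher with K24R than with p53 WT. ATAD2 was 6.96 with vector, 4.86 with p53 WT and 5.99 with p53 K24R, also not detected with p53 WT, and at least 2.73-fold lower there than with vector. K24R was at least 1.39-fold above p53 WT and, unlike DTL, 1.97-fold below vector. POLA1, the catalytic subunit of polymerase alpha, was 6.92 with vector, 5.77 with p53 WT and 6.63 with p53 K24R (-1.15 ± 0.07 for p53 WT minus vector, where ± is the bead standard error of the difference).

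MCM genes were all lower with p53 WT than with vector, 8 of 8, and 2 of them by 1.5-fold. Of all genes 51.3% were lower at all and 11.5% by that much. MCM10 was 7.25 with vector, 6.36 with p53 WT and 7.41 with p53 K24R, a difference of -0.89 ± 0.07 from vector with p53 WT and of 0.16 ± 0.07 with K24R. MCM6 was 11.46 with vector, 10.83 with p53 WT and 11.30 with p53 K24R (-0.63 ± 0.05 and -0.16 ± 0.05). MCM4 was 10.46 with vector, 10.17 with p53 WT and 10.76 with p53 K24R, the order being lowest with p53 WT and highest with K24R. The remaining subunits of the ring stayed within 1.5-fold of vector, MCM2 by -0.56 and -0.40, MCM3 by -0.21 and 0.07, MCM5 by -0.26 and -0.12 and MCM7 by -0.20 and -0.15 for p53 WT and K24R against vector.

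Of the licensing genes, ORC1, listed under its former name, was 6.85 with vector, 6.19 with p53 WT and 6.53 with p53 K24R (-0.67 ± 0.08 for p53 WT minus vector), and CDT1 was 10.96 with vector, 10.57 with p53 WT and 10.38 with p53 K24R. CDC6, GINS1 and CLSPN were not detected on any H1299 array. GINS3 was 8.52 with vector, 7.92 with p53 WT and 8.27 with p53 K24R (-0.61 ± 0.09). In the clamp group RFC1 was 8.14 with vector, 6.99 with p53 WT and 7.46 with p53 K24R, a difference of -1.14 ± 0.07 with p53 WT and -0.68 ± 0.08 with K24R, but its other detected probe differed by -0.003 and 0.07. PCNA was 9.88 with vector, 9.68 with p53 WT and 10.12 with p53 K24R, small differences whose sign with p53 WT turned between its 2 probes.

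Among the nucleotide genes RRM2 was the 1 member higher by 1.5-fold with K24R than with vector, at 7.67 with vector, 7.58 with p53 WT and 8.35 with p53 K24R (0.68 ± 0.06 for K24R minus vector). RRM1 was 10.20 with vector, 9.94 with p53 WT and 10.63 with p53 K24R, likewise highest with K24R. DUT was 9.21 with vector, 8.52 with p53 WT and 8.97 with p53 K24R (-0.68 ± 0.06 for p53 WT minus vector), and its 3 probes differed in sign. RPA2, the member of the strand-binding group farthest from vector, was 11.56 with vector, 11.15 with p53 WT and 11.21 with p53 K24R, within 1.5-fold.

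CCNE1 was the 1 member of 51 higher by 1.5-fold with p53 WT than with vector, and 4 were higher at all. CCNE1 was 7.93 with vector, 8.76 with p53 WT and 8.32 with p53 K24R, 1.77-fold higher with p53 WT than with vector, and its 3 detected probes differed by 0.64 to 1.36 on the log2 scale. CCNE2 was 5.48 with vector, 4.52 with p53 WT and 4.996 with p53 K24R and was detected with vector alone, so its difference has no bound above 1 and it counts among the 14 by its fitted value alone. E2F1 was 6.68 with vector, 6.87 with p53 WT and 6.61 with p53 K24R, within 1.5-fold on all arrays. Of the 16 members with several detected probes, the probes had the same sign in 12 for p53 WT against vector, in 10 for K24R against vector and in 14 for K24R against p53 WT. The genes with opposite signs in the first were DUT, PCNA, POLD2 and RFC3.

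Replication factors outside the set gave 7 lower and 0 higher of 30 detected genes with p53 WT against vector (median -0.29), where 11.5% of all genes were lower and 9.25% higher, led by TOP2A, topoisomerase II alpha (-1.83 ± 0.07), and GMNN, geminin (-0.97 ± 0.08). With K24R against p53 WT 5 were higher and 1 lower, where 9.97% of all genes were higher and 8.19% lower, the lower being POLD4 (-0.90 ± 0.09). Of 18 detected genes that control entry into S phase, 5 were lower and 2 higher with p53 WT than with vector, the latter near the share of all genes, the higher being CDKN1A (2.65 ± 0.06) and CCND1 (0.64 ± 0.06), and the lower led by FBXO5, an inhibitor of the anaphase-promoting complex (-0.94 ± 0.07), and CDK6, not detected with p53 WT and at least 1.501-fold lower.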

How the data were processed

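RNA of 5 mouse thymus samples and 3 H1299 cultures was labelled with biotin and hybridised to Illumina bead arrays, per the labels' protocols. Per the file headers, the authors deposited the mean bead signal, a linear intensity that was not normalised, with its bead standard error, bead number and detection p-value, as 1 row per gene symbol in mouse and 1 per probe in human. Values deposited as the authors' matrix are linear intensity scaled between arrays by a method not given in the sources used here, and they served as an alternative.

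Signals were corrected by normexp with an offset of 16, quantile-normalised and put on a log2 scale in R 4.3.3 with limma 3.58.1. The mouse detection p-values appeared averaged over probes, so the negative-control mean and SD were estimated from signals at detection p-values of 0.02 to 0.98. A mouse row counted as above background over the estimated 99th percentile of the negative controls. All 5 mouse arrays were fitted with a mean per group (lmFit, eBayes, two-sided, Benjamini-Hochberg over 13089 rows). "At least" folds set the measured group against the lowest signal above background. In H1299 a gene was its detected probe of highest mean signal and a call was 1.5-fold.

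The members, gene lists and tests were chosen with earlier results of these data known. An earlier account tested rows detected on at least 2 of 5 mouse arrays, and here 1 was enough, because the unirradiated group is 1 array. Members given per array were a list of core genes, the 2 per role with the largest mouse differences, the 1 with the largest in p53 WT against vector, and those going against the rest, and any other member could be named. In mouse 3 members were matched through a synonym. The fit was tested on simulated data. Same-numbered irradiated arrays did not deviate together (r = 0.0274). Alternatives changed the background, offset, scaling, detection filter, fold, probe choice and arrays used. The rule that tests rows whose signal passes the negative controls on any array was added after seeing the data. Some items are not reported here.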

Additional observations from a re-analysis of the deposited data

How the results depend on the processing

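No called member changed direction in the mouse comparisons under any alternative run. The median log2 difference of members in irradiated against unirradiated wild type was -1.11 with limma's own inference of the background, -1.51 with no background correction, -1.62 with an offset of 50, -1.81 with median scaling, -1.29 in the authors' matrix, -1.86 with detection on at least 2 of 5 arrays or with signal above the negative controls on 1 (chosen after seeing the data), and -1.76 with no filter. For null against irradiated wild type it was 0.26, 0.38, 0.54, 0.53 and 0.17 under the first 5 of these and 0.83 with detection on all 5 arrays. For null against unirradiated it was -0.93 with limma's own inference. In null against irradiated wild type that inference left 15 members higher and 1 lower, and whole-table counts of 1417 higher and 1554 lower. It gave 1138 higher and 1737 lower rows for irradiated against unirradiated wild type and 664 and 1246 for null against unirradiated.

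With 1 array left out at a time, the members called ranged from 0 to 45 for irradiated against unirradiated wild type (medians -1.99 to -1.91), from 7 to 29 for null against irradiated wild type (0.60 to 0.88) and from 4 to 42 for null against unirradiated (-1.30 to -0.99). All 3 low ends came from leaving out an irradiated wild-type array, where lone arrays are assumed to vary like the null pair, and 0 of 12712 and 0 of 12784 rows then passed in limma for irradiated against unirradiated wild type, with 4187 and 3861 at an unadjusted p under 0.05. For null against irradiated wild type, 385 rows were then higher and 530 lower, and 167 and 307. With the replicate block 22 members were higher and 1 lower, and over all rows 2451 and 2710, so the block, which rests on numbers that did not pair the arrays, changed few calls. With no array left out, 36 of 41, 11 of 24 and 28 of 39 calls in the 3 comparisons held under every other alternative in which the gene was tested, and 35 of the 45 members were tested with detection on all 5 arrays.

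In H1299 the members past 1.5-fold in either direction for p53 WT against vector, 15, became 4 at 2-fold, 6 with no background correction, 9 with an offset of 50 and 4 in the authors' matrix. Over all genes the counts fell too, from 1443 lower and 1166 higher to 295 and 350, 243 and 261, 598 and 521, and 292 and 168, and the median was -0.40 with median scaling. For K24R against vector, 5 became 0, 0, 3 and 0 (739 lower and 861 higher of all genes became 85 and 175, 38 and 149, 145 and 295, and 22 and 140). For K24R against p53 WT, 7 became 3 at 2-fold, 2 with no background correction and 4 in the matrix (1032 lower and 1256 higher of all genes became 212 and 148, 161 and 210, and 81 and 292), with medians of 0.20 without correction and 0.24 with an offset of 50.

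Of members not called in null against irradiated wild type, 12 changed sign in some alternative. E2f1 was 0.028 and Ung 0.0019 with limma's inference, 0.0084 and 0.0045 with no background correction, and Ung 0.0040 with an offset of 50. With median scaling Ccne1 was -0.055, Chaf1a -0.17, Lig1 -0.014, Rfc5 -0.23, Rpa1 0.24 and Rrm2 -0.14. In the authors' matrix Ccne1 was -0.18, Chaf1a -0.31, Clspn -0.043, Lig1 -0.18, Rfc2 -0.20, Rfc5 -0.30, Rpa1 0.014 and Rrm2 -0.24. Against the unirradiated array Rpa2 in the null was -0.089 with median scaling and -0.061 in the matrix. With 1 array left out at a time, E2f1 ranged from -0.62 to 0.57, Ung from -0.37 to 0.34, Chaf1a from -0.10 to 0.29, Rpa1 from -0.13 to 0.058, Rrm2 from -0.13 to 0.50, Rfc2 from -0.051 to 0.17, Mcm2 from -0.49 to 0.024, Pola2 from -0.13 to 0.053, and Rpa2 against unirradiated from -0.058 to 0.22. The cause of these changes was not tested. Signals near the negative controls, as for Orc1, Prim1, Dtl and Atad2 in mouse and DTL and ATAD2 in H1299, limit folds to bounds.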
